A study of Mus musculus with 714 samples.

Results

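Gene families that run the cell cycle were followed through postnatal growth of the uterine epithelium of the mouse. Members were the rows of the counts table whose names begin with a family stem (Mcm, Gins, Orc, Rfc, Rrm, E2f, Cdc, Cdca, Cdk, Cdkn, Ccna, Ccnb, Ccnd, Ccne, Cenp, Kif, Aurk, Bub, Plk or Ncap, with Cdc42 left out), plus Pcna, Top2a, Birc5, Ube2c, Tyms and Uhrf1. The names took in 1.35% of the 12479 gene rows. By their known roles, 27 members were set down as DNA synthesis genes, 52 as mitosis genes and 26 as control genes (cyclins of the first gap phase, CDK inhibitors, E2F factors, CDC25 phosphatases and subunits of the anaphase-promoting complex). The other 64 carry a matching name and mostly other work, such as the kinesins that haul cargo along microtubules.

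The cells came from uteri of ICR mice, an outbred strain, at postnatal days 0, 7, 14, 28 and 56 (pnd0 to pnd56), and had been sorted for CD326, the epithelial surface protein encoded by Epcam. No age group carries a labelled allele, agent or treatment, and no source used here gives the stage of the oestrous cycle at pnd56. Each cell was made into a CEL-seq library, in which RNA is amplified by in vitro transcription and read near its 3′ end, and 714 of 960 collected cells are in the table, each with a title of its own. No label names an animal, so every age counts as 1 sample, the error bars cover counting only, and no test between ages was possible.

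To divide, a cell loads the MCM helicase onto origins marked by the origin recognition complex, fires it together with the GINS proteins, and copies its DNA behind the sliding clamp PCNA, which RFC proteins load. It then switches on another set of genes, among them cyclin A and B, Polo and Aurora kinases, condensins, kinetochore proteins and mitotic kinesins, and ends mitosis when the anaphase-promoting complex, with its ubiquitin-conjugating enzyme UBE2C, destroys the cyclins. Cyclin D with CDK4 or CDK6 opens the way into the cycle by way of the E2F factors, and the CDK inhibitors close it. In the mouse the uterus is lined at birth by a simple epithelium, from which glands bud during the first weeks of life.

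The upstream sequences of DNA synthesis and mitosis genes differed in motifs known from cell cycle promoters. E2F factors bind sites in the promoters of replication genes, while the cell cycle genes homology region (CHR), often near CCAAT boxes, is the element through which the DREAM and MuvB complexes regulate genes of mitosis. RefSeq windows (build GRCm38.p6, the 250 bases before and 50 after each start) were found for 24 DNA synthesis and 48 mitosis members, and were searched on both strands for the CHR letters TTTGAA, for the CCAAT box by its own letters, and for the E2F forms TTTGGCG, with its variant TTTCGCG, and TTCCCGC. The CHR letters were in windows of 28 mitosis members (58.3%) and 4 DNA synthesis members (16.7%), against 15.1% of the 9311 gene rows that had a window. The E2F letters were in 15 DNA synthesis members (62.5%) and 16 mitosis members (33.3%), against 13.3% of those gene rows. A CCAAT box was about as common in one kind as in the other, in 70.8% of DNA synthesis and 66.7% of mitosis members, against 42.6%. Both CHR and CCAAT letters were in 45.8% of mitosis members, 12.5% of DNA synthesis members and 5.97% of the gene rows.

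The 250 bases upstream of 4 mitosis members and 3 DNA synthesis members are shown because these carry the most counts among members with the motif of their kind. In the mitosis promoters the capitals mark CHR and CCAAT letters, and in the DNA synthesis promoters E2F and CCAAT letters, each on either strand (TTCAAA and ATTGG are the opposite-strand forms of TTTGAA and CCAAT). Each runs 5′ to 3′ along the gene and ends at the base before its start.
Ube2c (chr2:164769679-164769928, plus strand): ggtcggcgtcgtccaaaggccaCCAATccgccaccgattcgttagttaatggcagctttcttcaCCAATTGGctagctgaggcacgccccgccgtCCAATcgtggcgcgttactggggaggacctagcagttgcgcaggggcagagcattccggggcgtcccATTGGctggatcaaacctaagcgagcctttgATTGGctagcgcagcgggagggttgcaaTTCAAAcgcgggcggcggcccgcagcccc
Top2a (chr11:99024190-99024439, minus strand): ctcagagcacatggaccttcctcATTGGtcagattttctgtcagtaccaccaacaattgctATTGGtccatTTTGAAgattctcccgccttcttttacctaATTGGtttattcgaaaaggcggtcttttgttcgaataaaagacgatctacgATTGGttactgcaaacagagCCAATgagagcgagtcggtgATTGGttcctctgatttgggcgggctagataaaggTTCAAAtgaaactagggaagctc
Bub3 (chr7:131560120-131560369, plus strand): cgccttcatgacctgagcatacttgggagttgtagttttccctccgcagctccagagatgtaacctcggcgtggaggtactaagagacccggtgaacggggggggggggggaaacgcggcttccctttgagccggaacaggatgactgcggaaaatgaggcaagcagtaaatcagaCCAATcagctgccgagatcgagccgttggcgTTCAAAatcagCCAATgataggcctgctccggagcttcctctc
Cdca5 (chr19:6084847-6085096, plus strand): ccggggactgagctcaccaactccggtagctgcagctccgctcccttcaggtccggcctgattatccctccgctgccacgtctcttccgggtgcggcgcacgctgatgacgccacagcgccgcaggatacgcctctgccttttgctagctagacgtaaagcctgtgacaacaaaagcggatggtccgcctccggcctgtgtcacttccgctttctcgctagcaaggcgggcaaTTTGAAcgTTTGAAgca
Mcm5 (chr8:75109259-75109508, plus strand): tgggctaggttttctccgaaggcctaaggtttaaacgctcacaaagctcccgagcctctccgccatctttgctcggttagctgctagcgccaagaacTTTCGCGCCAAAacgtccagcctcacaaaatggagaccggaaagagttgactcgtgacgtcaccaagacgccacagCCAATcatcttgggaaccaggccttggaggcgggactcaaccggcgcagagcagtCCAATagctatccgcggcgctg
Rrm1 (chr7:102441445-102441694, plus strand): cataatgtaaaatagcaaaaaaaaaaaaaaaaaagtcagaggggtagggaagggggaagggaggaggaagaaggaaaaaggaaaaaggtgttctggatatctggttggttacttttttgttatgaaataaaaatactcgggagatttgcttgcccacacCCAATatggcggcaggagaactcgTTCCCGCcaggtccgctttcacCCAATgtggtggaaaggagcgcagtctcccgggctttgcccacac
Uhrf1 (chr17:56303087-56303336, plus strand): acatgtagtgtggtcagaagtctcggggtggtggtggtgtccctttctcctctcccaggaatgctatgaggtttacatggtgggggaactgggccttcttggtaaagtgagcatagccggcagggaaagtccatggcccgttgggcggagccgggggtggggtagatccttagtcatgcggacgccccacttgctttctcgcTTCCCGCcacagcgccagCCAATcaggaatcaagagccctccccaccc
The CHR letters begin 29 bases before the start in Ube2c, 23 in Top2a, which holds a further match upstream, 43 in Bub3, and 9 and 17 in Cdca5. Ube2c and Top2a each hold 6 CCAAT boxes in these bases, of which a pair in Ube2c overlap each other. Cdca5 holds CHR letters in tandem and no CCAAT box in the bases shown. The E2F letters begin 67 bases before the start in Rrm1 and 48 in Uhrf1, and Mcm5 has an overlapping pair, one on each strand. A match describes the letters only.

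The depth of the libraries limits which members can be read. The ages hold 24.2%, 37.4%, 24.2%, 7.84% and 6.30% of the 714 cells with 582615, 732957, 354047, 96248 and 81894 counts, and the median cell had 3037, 2492, 1782, 1600 and 1670 counts. A level is the sum of a gene's counts at an age per 1000000 counts of all genes (CPM), with an exact Poisson 95% interval, and 3 counts correspond to between 4.09 CPM at pnd7 and 36.6 CPM at pnd56. Consecutive title numbers fall into 10 blocks of 96, each of 1 age, which are called runs here (runs 1 and 2 at pnd0, 5, 6 and 10 at pnd7, 3, 4 and 7 at pnd14, 9 at pnd28 and 8 at pnd56). No label explains the blocks. That the cells of one were handled together is an assumption, and age and run cannot be told apart. Epcam was counted in 28.6% to 53.3% and Krt18, an epithelial keratin, in 78.6% to 98.9% of the cells of an age. Smooth muscle markers (5 rows) summed to 68.7, 181.5, 2827, 1299 and 109.9 CPM at the 5 ages and stromal markers (8 rows) to 41.2, 124.2, 838.9, 3584 and 2869.6 CPM. Haemoglobin and other erythroid genes (6 rows) summed to 15029, 327.4, 268.3, 218.2 and 24.4 CPM, and urothelial markers (3 rows) to 432.5, 1.36, 0, 0 and 0 CPM. The erythroid value at pnd0 came almost wholly from run 1, at 29629 CPM against 13.9 CPM in run 2. Cells with at least 5 counts of a non-epithelial marker list (20 for the erythroid list) are called cells carrying non-epithelial markers. The lists for endothelium, immune cells and mesothelium were used as well. Leaving out these cells removed 18, 13, 46, 17 and 3 cells. Cells with fewer such counts were kept.

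Of the members, 8 of 27 for DNA synthesis, 25 of 52 for mitosis, 10 of 26 for control and 24 of 64 others had fewer than 20 counts over all 714 cells. Several textbook genes are among them: Ccnb1, the main mitotic cyclin, had 2 counts, Cdc20, the activator of the anaphase-promoting complex, 5, Mcm6 1, Mcm2 8, Ccnd1 5 and Cdkn1b 3. Nothing about these genes follows from so few counts. Ccnb2, Cdc34 and Kifc1 have a near copy among the rows that may share their reads.

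DNA synthesis and mitosis genes were both at their lower levels at pnd14 relative to the first week, and parted company at pnd28. The DNA synthesis members summed to 1728 CPM (95% interval 1623 to 1839) at pnd0, 1821 CPM (95% interval 1725 to 1922) at pnd7, 1065 CPM (95% interval 960.04 to 1178) at pnd14, 1714 CPM (95% interval 1463 to 1997) at pnd28 and 1429 CPM (95% interval 1182 to 1712) at pnd56. The mitosis members summed to 1972 CPM (95% interval 1859.8 to 2089.6), 2328 CPM (95% interval 2218 to 2441), 1347 CPM (95% interval 1229 to 1474), 1174 CPM (95% interval 967.6 to 1412) and 1685 CPM (95% interval 1416 to 1991). So the DNA synthesis sum was high at pnd28, near its level of the first week. Rfc4 and Orc5 alone held 436.4 and 405.2 CPM of it. The mitosis sum had its lowest value at pnd28. A summed level cannot tell fewer cells carrying a gene from fewer counts in each of them.

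**Figure D1:**
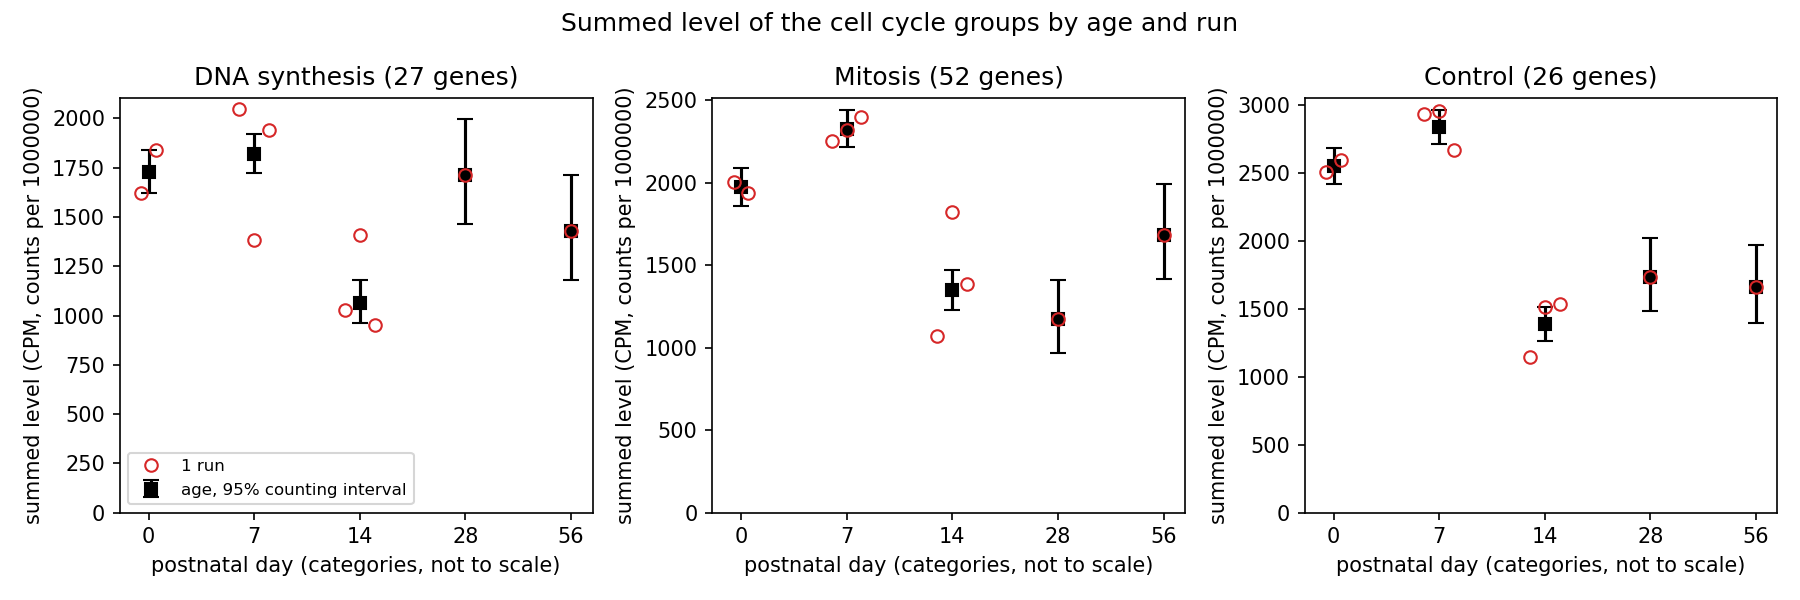
Summed level in CPM (y axes, from 0) of the DNA synthesis, mitosis and control genes at each age (x axes, categories), with black squares for the age and its 95% Poisson counting interval and open red circles for single runs. The mitosis sums of the 3 pnd7 runs lie between 2254 and 2397 CPM, above the 3 pnd14 runs, of which run 4 is the highest at 1822 CPM.

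The runs spread more widely than the counting intervals. At pnd7 the DNA synthesis sum was 2049, 1383 and 1943 CPM in runs 5, 6 and 10, and at pnd14 it was 1028, 1408 and 950.7 CPM in runs 3, 4 and 7, so run 6 of the earlier age lay below run 4 of the later one. The mitosis sum was 2254, 2318 and 2397 CPM in the pnd7 runs and 1073, 1822 and 1387 CPM in the pnd14 runs, which did not overlap. At pnd0, runs 1 and 2 gave 1622 and 1838 CPM for DNA synthesis and 2008 and 1936 CPM for mitosis. pnd28 and pnd56 are 1 run each.

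From birth to pnd7 the DNA synthesis genes stood nearly level as a group, and the mitosis genes stood somewhat higher. The log2 ratio of the summed counts, pnd7 over pnd0, was 0.08 (−0.04 to 0.20) for DNA synthesis and 0.24 (0.13 to 0.35) for mitosis, where the brackets here and below hold the exact conditional 95% counting interval. Among members with at least 20 counts over both ages, 0 of 17 DNA synthesis members were at least 2-fold higher or lower. Of 26 mitosis members, 2 were at least 2-fold higher and 4 at least 2-fold lower, where 4.94% and 7.61% of all genes with as many counts were. The medians were 0.01 and 0.33, against −0.03 over all genes.

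Ccna2, which encodes cyclin A, was the mitosis member with the highest ratio at pnd7. It had 4, 41, 7, 1 and 5 counts at pnd0, pnd7, pnd14, pnd28 and pnd56, that is 6.87, 55.9, 19.8, 10.4 and 61.1 CPM, with 13.5 and 0 CPM in the pnd0 runs and 57.5, 43.8 and 63.4 CPM in the pnd7 runs. Its log2 ratio was 3.03 (1.56 to 4.97), and it ran from 2.03 with each cell thinned to 1500 counts to 3.75 without cells carrying non-epithelial markers. Cdca3, a trigger of mitotic entry that acts with ubiquitin ligases, had 70.4, 185.6, 36.7, 0 and 97.7 CPM at the 5 ages, and its pnd7 runs (156.04, 219.2 and 186.6 CPM) all lay above its pnd0 runs (47.4 and 94 CPM). Its ratio was 1.40 (0.89 to 1.94). Birc5 (survivin, of the chromosomal passenger complex) gave 0.46 (0.04 to 0.89), and Ncaph2, a subunit of condensin II with the most counts of the group, 0.45 (0.21 to 0.69). The runs of both overlapped. Birc5 had 130.2 CPM in run 10 at pnd7 against 132.3 CPM in run 2 at pnd0. Ncaph2 had 447.6 CPM in run 5 at pnd7 against 483.9 CPM in run 2 at pnd0. Among DNA synthesis members, Mcm5 of the helicase was higher at 0.70 (0.28 to 1.13) and Gins1 at 0.82 (0.07 to 1.62).

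A few members went the other way in the first week. Cenpl, a kinetochore gene, had a ratio of −1.29 (−2.22 to −0.40), with 67.7 and 45.3 CPM in the pnd0 runs and 8.21, 29.2 and 31.7 CPM in the pnd7 runs, without overlap. Plk4, the kinase that starts centriole duplication, had −1.01 (−1.66 to −0.37), but run 1 alone held 152.3 CPM against 38.3 CPM in run 2, and without run 1 the ratio was 0.32. The ratio of Ncapd2, a subunit of condensin I, was likewise −0.90 (−1.73 to −0.09) with run 1 and −0.15 without it. Kif23, a mitotic kinesin named after its values were seen, had the lowest ratio of the mitosis members, −1.54. It had 74.5 and 27.9 CPM in the pnd0 runs and 16.4, 9.74 and 24.6 CPM in the pnd7 runs, without overlap. These genes do not follow one role: 2 build chromosomes and kinetochores, 1 the spindle poles, and 1 is a motor.

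At pnd14 both kinds of gene stood well below their level at pnd7. The summed level was 1.71-fold lower for DNA synthesis, a log2 ratio of −0.77 (−0.94 to −0.61), and 1.73-fold lower for mitosis, −0.79 (−0.94 to −0.64). Of the DNA synthesis members with at least 20 counts over both ages, 7 of 17 were at least 2-fold lower and 0 higher, and of the mitosis members 13 of 24 were lower and 0 higher. Among all 5553 genes with as many counts, 14.3% were at least 2-fold lower and 10.7% higher. The median log2 ratio was −0.84 for DNA synthesis, −1.08 for mitosis and −0.10 for all genes. Without the cells carrying non-epithelial markers the sums gave −0.72 and −0.74, and with each cell thinned to 1500 counts −0.55 and −0.71.

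**Figure D2:**
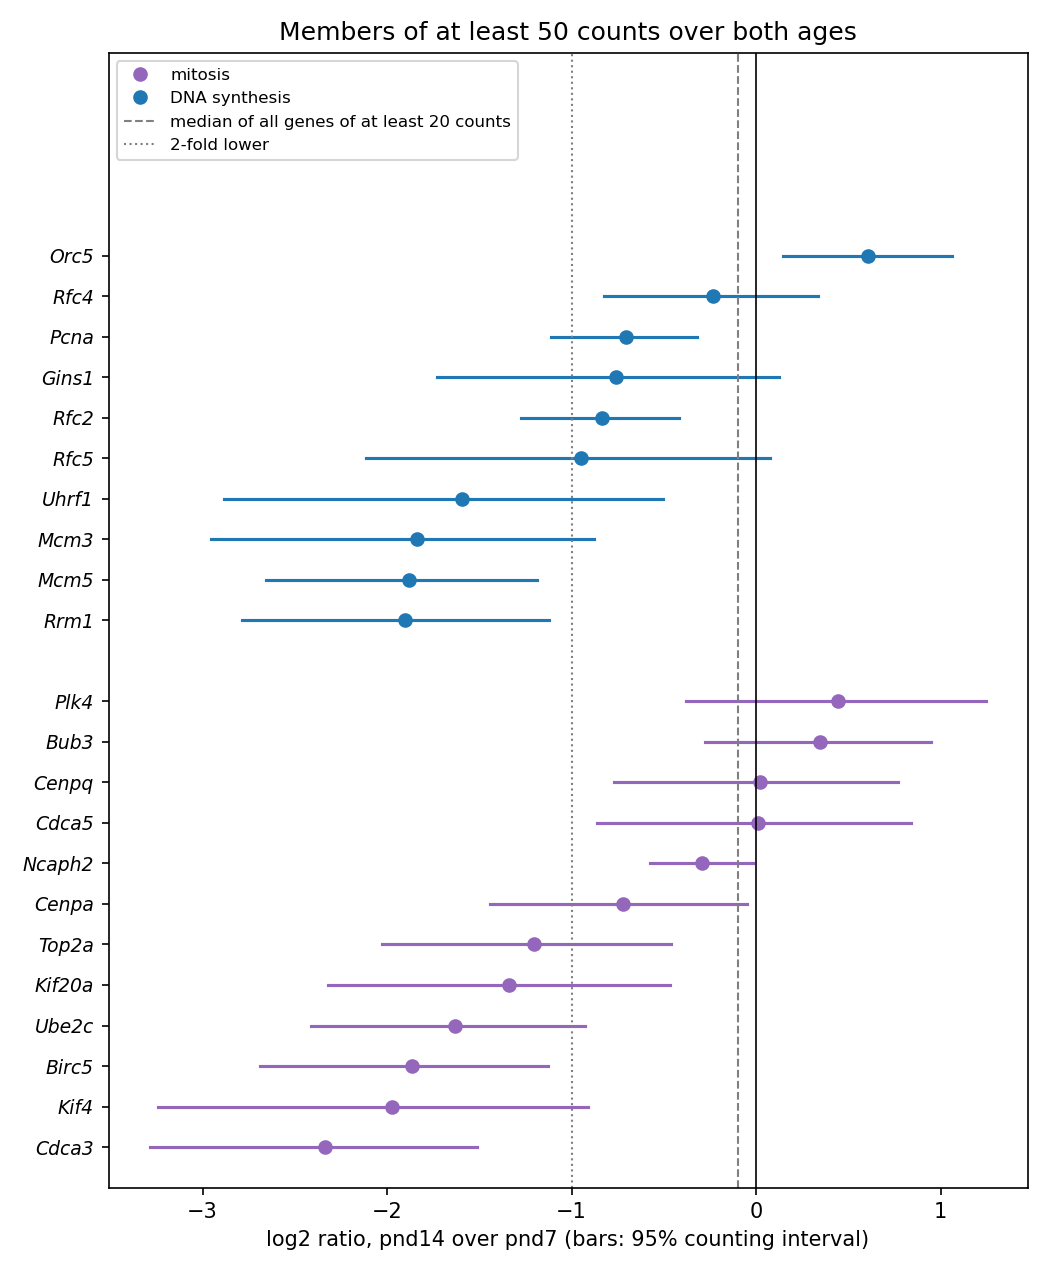
Log2 ratio of the level at pnd14 over that at pnd7 (x axis) for each DNA synthesis (blue) and mitosis (purple) member with at least 50 counts over both ages (y axis, gene names), with the exact 95% counting interval as a bar. The points run from −2.34 for Cdca3 to 0.61 for Orc5, with the dashed line at the median of all genes (−0.10) and the dotted line at 2-fold lower.

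Among the DNA synthesis roles, the summed counts of the helicase and of the nucleotide supply were lowest relative to pnd7, at −1.46 and −1.52. Each of these roles held 1 member above 0. The origin recognition genes that could be read differed with single runs. Mcm5 had 121.9, 197.8, 53.7, 72.7 and 232.01 CPM at pnd0, pnd7, pnd14, pnd28 and pnd56, and its pnd14 runs (29.6, 30.6 and 84.7 CPM) all lay below its pnd7 runs (205.3, 146.1 and 228.8 CPM). Its log2 ratio was −1.88 (−2.66 to −1.19) (−2.72 without run 7), and Mcm3, another of the ring's subunits, gave −1.84 (−2.96 to −0.88) (−0.74 when thinned). Mcm7 gave 0.28 (−1.005 to 1.49) on 27 counts, and −0.76 without run 3. Rrm1, the large subunit of ribonucleotide reductase, had 133.9, 158.3, 42.4, 72.7 and 122.1 CPM, and its ratio was −1.90 (−2.78 to −1.12) (−2.99 without run 7). Its runs overlapped, since run 6 at pnd7 (63.3 CPM) lay below run 7 at pnd14 (71.6 CPM). The small subunit Rrm2 stood at −1.84 (−3.54 to −0.49) (−0.92 when thinned). Uhrf1, which carries DNA methylation through replication, stood at −1.59 (−2.88 to −0.51) (−2.19 without run 7). Tyms, set in the same role as Rrm1, Rrm2 and Uhrf1 and named after its values were seen, gave 0.13. It had 4.11, 34.1 and 31.7 CPM in the pnd7 runs and 51.8, 15.3 and 6.51 CPM in the pnd14 runs.

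The clamp and the loader subunits with the most counts differed less between these ages. Pcna had 326.1, 327.4, 200.5, 322.1 and 207.6 CPM, with a ratio at pnd14 of −0.71 (−1.11 to −0.32) and overlapping runs (377.8, 238.6 and 348.5 against 221.96, 275.5 and 149.8 CPM). Rfc2, one of the loader's small subunits, had 317.5, 302.9, 169.5, 176.6 and 268.6 CPM and −0.84 (−1.27 to −0.42), with pnd14 runs (118.4, 168.4 and 214.9 CPM) below the pnd7 runs (316.2, 297.1 and 295.7 CPM). Rfc4, of the same complex, gave −0.23 (−0.83 to 0.33), and 0.69 without run 10. Rfc5, a further small subunit, gave −0.95 (−2.12 to 0.07) on 50 counts, between −3.45 without run 7 and 0.17 when thinned.

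Orc5, of the origin recognition complex, was the one DNA synthesis member with at least 50 counts over pnd7 and pnd14 whose ratio lay above 0, at 0.61 (0.15 to 1.06), and its level differed widely between runs of an age. It was 121.9 and 219.3 CPM in the pnd0 runs, 316.2, 77.9 and 17.6 CPM in runs 5, 6 and 10, 192.4, 627.6 and 32.6 CPM in runs 3, 4 and 7, 405.2 CPM in run 9 and 24.4 CPM in run 8. The ratio was −0.32 without run 4 and −0.03 without run 10. Orc2, with 43 counts over both ages, gave 0.44 (−0.54 to 1.37), and −0.63 without run 3. As a group the 7 licensing genes had 312.4, 237.4, 288.1, 436.4 and 73.3 CPM at the 5 ages, of which Orc5 is the larger part at pnd28.

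Among the mitosis roles, the summed counts of cyclins with kinases and of kinesins were lowest at pnd14 relative to pnd7, at −1.29 and −1.17. The sum of passenger, cohesion and condensation genes stood at −0.77. Birc5 had 127.01, 174.6, 48, 51.9 and 85.5 CPM at pnd0, pnd7, pnd14, pnd28 and pnd56, with 225.8, 175.3 and 130.2 CPM in the pnd7 runs and 37, 61.2 and 52.1 CPM in the pnd14 runs, which do not overlap, and a ratio of −1.86 (−2.69 to −1.13). It was counted in 20.6% of pnd7 cells and 3.47% of pnd14 cells. Cdca3 gave −2.34 (−3.28 to −1.52), also without overlap, and between −3.16 without run 4 and −1.63 without run 7. Plk1, the Polo kinase of spindle assembly, had 79, 57.3, 16.9, 10.4 and 36.6 CPM and −1.76 (−3.28 to −0.52) (−2.46 without run 4), with overlapping runs. Ccna2 stood at −1.50 (−2.90 to −0.33). Of 5 mitotic cyclins and kinases with enough counts, 4 were at least 2-fold lower, where 14.3% of all genes with as many counts were. Among the 4 are Aurkb and Cdk1, named after their values were seen: Aurkb, the kinase of the passenger complex, had 22, 39, 2, 1 and 3 counts at the 5 ages, and Cdk1, the mitotic kinase itself, 10, 25, 0, 2 and 0. Both reached the minimum of 20 counts through pnd7 alone, and the ratio of Cdk1 is a bound at the floor.

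The anaphase enzyme was lower too, and 4 of the 5 mitotic kinesins with enough counts lay below 0. Kif23 did not, at 0.52, with all its pnd14 counts in run 7 (58.6 CPM). Of the kinesins without a mitotic role, 8 of 11 lay below 0, and of all 5553 genes with as many counts 3092 did. The sign alone thus does not set the mitotic kinesins apart. At least 2-fold lower were 3 of the 5 mitotic kinesins, 1 of the 11 other kinesins and 14.3% of all genes. Kif4, a chromosome-bound kinesin, had 60.1, 88.7, 22.6, 20.8 and 12.2 CPM and a ratio of −1.97 (−3.24 to −0.91) (−1.20 when thinned and −3.15 without run 7, and −2.61 without the marker-carrying cells). Kif20a, which works at the midzone as a cell divides, had 68.7, 92.8, 36.7, 31.2 and 24.4 CPM and −1.34 (−2.32 to −0.47), with its pnd7 runs (110.9, 82.8 and 84.5 CPM) above its pnd14 runs (51.8, 15.3 and 32.6 CPM). Ube2c had 135.6, 166.4, 53.7, 62.3 and 109.9 CPM and −1.63 (−2.41 to −0.93). At pnd14, however, 12 of its 19 counts came from 1 cell, run 4 stood above every pnd7 run, and the ratio was −3.002 without run 4 and −1.02 without run 3. Top2a, the topoisomerase that untangles chromosomes, had 104.7, 117.3, 50.8, 51.9 and 73.3 CPM and −1.21 (−2.03 to −0.46), with runs that overlapped.

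Some mitosis members had ratios nearer to 0, and for most of these the value differed with single runs or with the cells used. Ncaph2 stood at 382.8, 522.5, 426.5, 301.3 and 500.6 CPM, a ratio of −0.29 (−0.57 to −0.02). Without it the mitosis sum gave −0.97. Cenpa, the histone variant that marks centromeres, gave −0.72 (−1.44 to −0.05), of which run 4 held 290.9 CPM against 7.4 and 26 CPM in runs 3 and 7. Without run 4 it was −2.69, and without run 3 −0.09. Bub3 (spindle checkpoint), Cenpq (kinetochore), Cdca5 (sororin, which protects cohesion) and Plk4 had values of 0.34, 0.02, 0.01 and 0.44, each with an interval that holds 0. Cdca5 went from −1.22 without run 3 to 1.28 when thinned, Bub3 gave 1.17 when thinned, and Plk4 gave −0.46 without cells carrying non-epithelial markers.

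The control genes were lower at pnd14 as a sum, at −1.03 (−1.18 to −0.89), and Cdk4, the kinase partner of D cyclins, made up most of that difference. Cdk4 had 1219, 1555, 497.1, 664.9 and 793.7 CPM at pnd0, pnd7, pnd14, pnd28 and pnd56, with 1222 and 1215 CPM in the pnd0 runs, 1622, 1578 and 1482 CPM in the pnd7 runs and 480.9, 597.01 and 468.9 CPM in the pnd14 runs. Every run of the first week lay above every later one, and the ratio of pnd14 over pnd7 was −1.65 (−1.88 to −1.42). It was counted in 87.6% of pnd7 cells and 38.7% of pnd14 cells. Cdk6, its close relative, gave −1.10 (−2.33 to −0.04), with all pnd14 counts in run 7, −3.75 without the cells carrying non-epithelial markers, and −0.41 without run 3. Ccnd3, the only D cyclin with many counts, differed less, at 339.8, 266.05, 189.2, 135.1 and 158.7 CPM and −0.49 (−0.91 to −0.08). Ccnd2 and Ccne2 had 10, 10, 2, 0 and 0 and 11, 15, 7, 1 and 0 counts at the 5 ages.

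The CDC25 phosphatases, which remove the brake on cyclin-dependent kinases, were among the members with the lowest ratios. Cdc25a had 72.1, 79.1, 11.3, 20.8 and 12.2 CPM and a ratio of −2.81 (−4.73 to −1.37) (−3.64 when thinned). Cdc25b had 125.3, 118.7, 25.4, 83.1 and 0 CPM and −2.22 (−3.40 to −1.23) (−3.15 when thinned). For both, the pnd14 runs (14.8, 0 and 13 CPM and 37, 0 and 26 CPM) lay below the pnd7 runs (69.8, 126.6 and 52.8 CPM and 123.2, 82.8 and 140.8 CPM). Cdc16, a scaffold subunit of the anaphase-promoting complex, gave −0.65 (−1.12 to −0.21), and −1.34 without run 7.

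The E2F factors did not share one direction. E2f4, one of the repressor members, gave −1.22 (−2.30 to −0.26) (−0.35 when thinned) and E2f5, another repressor, 0.30 (−0.22 to 0.80). E2f2, E2f3 and E2f7 had 15, 21, 9, 0 and 0, 9, 25, 6, 0 and 0 and 6, 24, 5, 0 and 0 counts at the 5 ages, and E2f6 had 22, 22, 11, 3 and 1. E2f7, an atypical repressor, had 16.9 and 3.48 CPM in the pnd0 runs and 41.1, 9.74 and 42.2 CPM in the pnd7 runs, which overlap. Its ratio of pnd7 over pnd0 was 1.67 (0.34 to 3.25), and it was 3.23 without run 1 and 0.95 without run 2. The family summed to 262.6, 321.98, 271.1, 155.8 and 146.5 CPM.

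**Figure D3:**
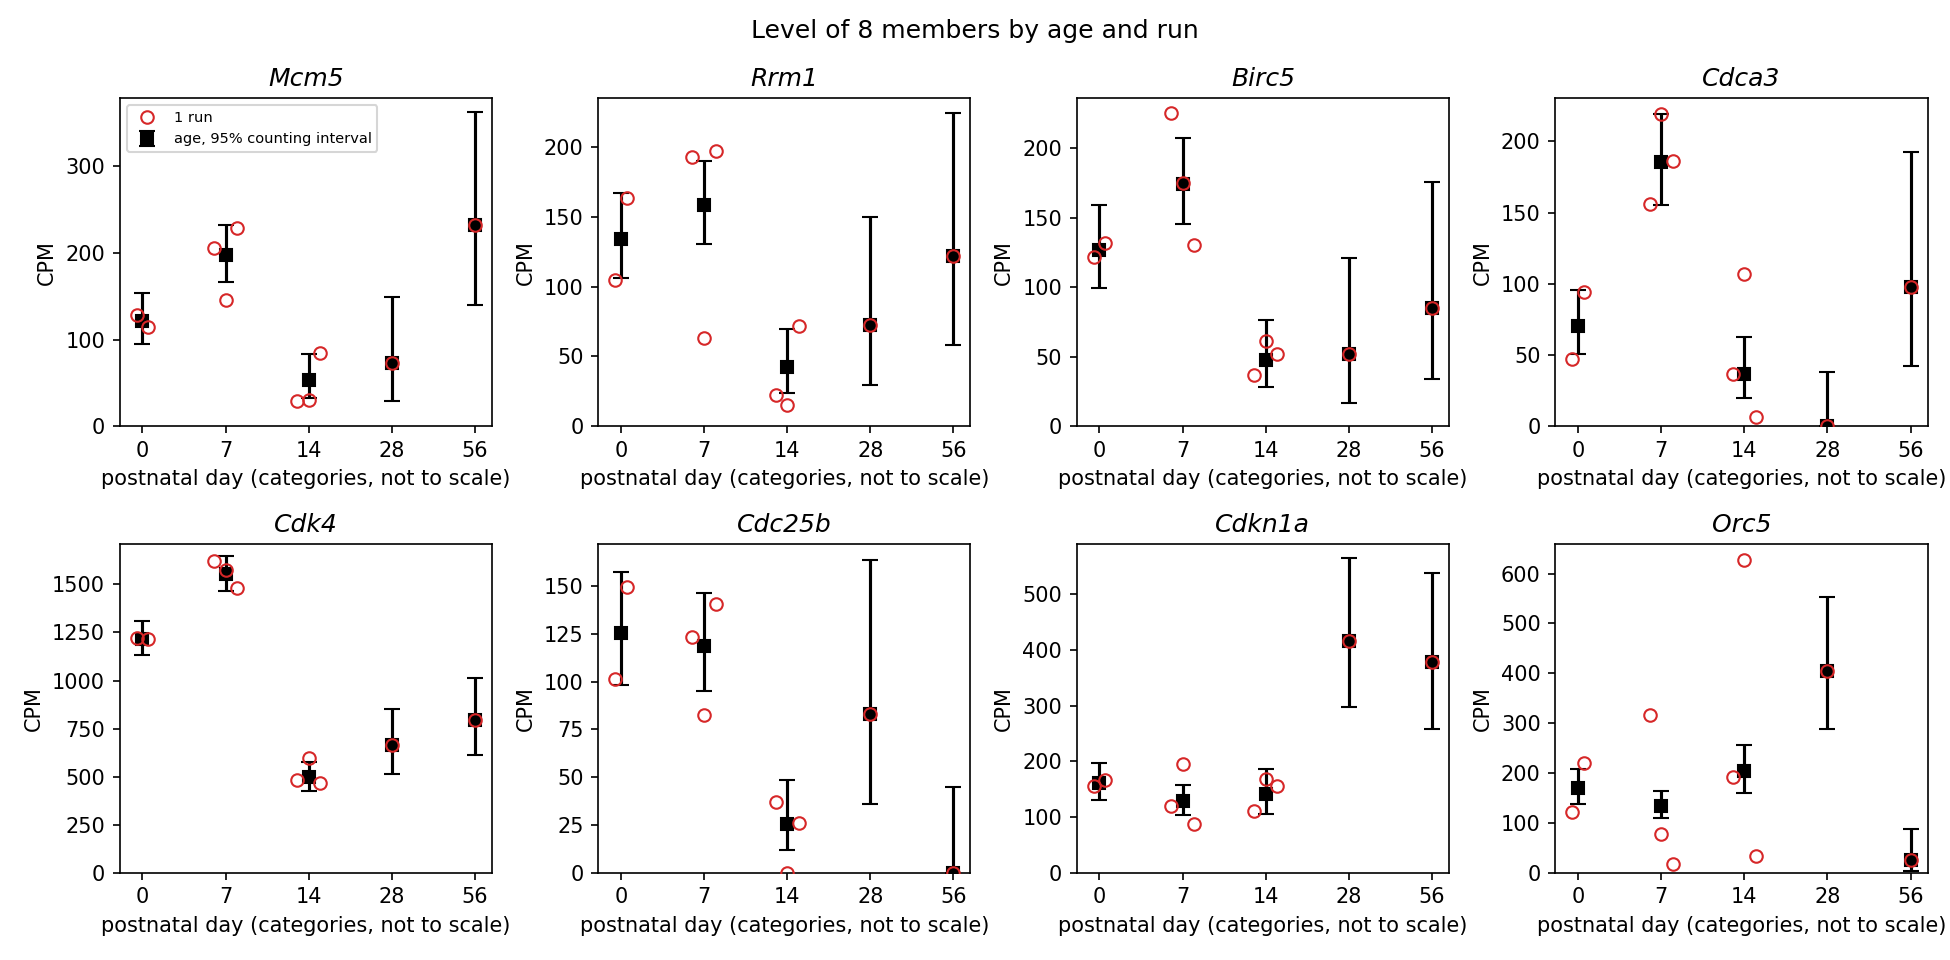
Level in CPM (y axes, from 0) of Mcm5, Rrm1, Birc5, Cdca3, Cdk4, Cdc25b, Cdkn1a and Orc5 at each age (x axes, categories), with black squares for the age and its 95% Poisson counting interval and open red circles for single runs. Cdk4 stands at 1555 CPM at pnd7 and 497.1 CPM at pnd14 with little spread between runs, while Orc5 runs from 32.6 to 627.6 CPM within pnd14.

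Genes of the same processes that the names did not take in were lower at pnd14 too. Of 42 further DNA replication genes, 30 had enough counts, 17 were at least 2-fold lower and 0 higher, with a median of −1.18. Of 54 further mitosis genes, 19 of 28 were lower and 0 higher, with a median of −1.44. Over all genes with as many counts, 14.3% were lower and 10.7% higher, with a median of −0.10. Chaf1b, of the chromatin assembly factor that lays histones on new DNA, had 422.2, 342.4, 110.2, 124.7 and 244.2 CPM at the 5 ages, and Pole, the catalytic subunit of the leading-strand polymerase, 139.03, 231.9, 42.4, 62.3 and 244.2 CPM. Pold2, Rpa2 and Msh6 were named after their values were seen. For pnd14 over pnd7, Pold2 and Rpa2 differed less, at −0.69 (−1.17 to −0.24) and −0.52 (−1.03 to −0.04). Msh6 went the other way, at 0.73 (0.11 to 1.36). Of the 30 replication genes, 27 lay below 0 and 3 above. Knstrn, a kinetochore-associated spindle protein, had 132.2, 135.1, 16.9, 51.9 and 122.1 CPM, and Lmnb1, of the nuclear lamina, 163.1, 184.2, 42.4, 41.6 and 24.4 CPM. Spc24, of the kinetochore's outer NDC80 complex, differed, at 108.1, 87.3, 155.3, 238.97 and 48.8 CPM. Both lists were drawn up with results of these data known, and they share cells and depth with the members.

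Between pnd14 and pnd28 the DNA synthesis sum was higher, at 0.69 (0.41 to 0.95), and the mitosis sum was not, at −0.20 (−0.51 to 0.10). The higher level rested on few genes. Rfc4 had 132.2, 122.8, 104.5, 436.4 and 268.6 CPM at the 5 ages, a ratio of pnd28 over pnd14 of 2.06 (1.39 to 2.74), and was counted in 42.9% of pnd28 cells against 15% at pnd14. Orc5 gave 0.99 (0.39 to 1.58) (0.28 without run 7 and 1.92 without run 4) and Pcna 0.68 (0.03 to 1.31). The 11 helicase genes did not share this: they summed to 360.4, 465.2, 169.5, 135.1 and 390.7 CPM at the 5 ages, and Gins1 and Mcm7 had 0 counts in 96248 at pnd28. The further replication genes summed to 3064, 3212, 1621, 1652 and 2198 CPM, so they stood no higher at pnd28 than at pnd14.

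Cdkn1a, which encodes the CDK inhibitor p21, was higher at pnd28. It had 161.3, 128.2, 141.2, 415.6 and 378.5 CPM, with 110.98, 168.4 and 156.3 CPM in the pnd14 runs, and the ratio of pnd28 over pnd14 was 1.56 (0.92 to 2.19). The 8 stromal marker rows also summed higher at pnd28, at 3584 CPM against 838.9 CPM at pnd14, and their part in these ratios was not tested. Plk4 was the mitosis member furthest down, with 1 count at pnd28, at −2.64 (−8.01 to −0.02).

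From pnd28 to pnd56, in the adult, the sums stood apart in opposite directions, −0.26 (−0.62 to 0.09) for DNA synthesis and 0.52 (0.15 to 0.89) for mitosis. Mcm5 was higher at 1.67 (0.36 to 3.17) (7 against 19 counts, and 0.18 when thinned), and Ncaph2 at 0.73 (0.01 to 1.47). Orc5 was lower at −4.05 (−7.15 to −2.10) (−2.85 when thinned), with 2 counts, both from 1 cell. Too few members reach 20 counts over these ages (5 of DNA synthesis and 2 of mitosis) for counts of members to be read.

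Set against birth, both sums stood nearer to their level at birth in the adult than at pnd14, and single genes differed. The sums of pnd56 over pnd0 gave −0.27 (−0.56 to 0.0026) for DNA synthesis and −0.23 (−0.49 to 0.03) for mitosis. Of 14 DNA synthesis members, 2 were at least 2-fold lower and 1 higher, and of 20 mitosis members 6 and 2, where 27.4% of all genes with as many counts were lower and 10.3% higher. The shares for members are near that background. Higher in the adult were Cdca5 at 1.83 (0.70 to 2.89) (1.01 when thinned), Rfc4 at 1.02 (0.27 to 1.72) and Mcm5 at 0.93 (0.12 to 1.68). Cdca5 rests on 12 counts in 4 cells. Lower were Ccnd3 at −1.10 (−2.03 to −0.29), Cdk4 at −0.62 (−1.01 to −0.25) and Cdc25a at −2.56 (−7.90 to −0.0047), with 1 count. Cdc25b had 0 counts at pnd56 against 73 at pnd0, a log2 ratio of at most −1.77 at a floor of 3 counts over the age (−0.61 when thinned). Cdkn1a gave 1.23 (0.60 to 1.83) over all cells, −0.46 with cells thinned to 1500 counts and 0.57 without cells carrying other markers, so the value differs with the cells and the depth used.

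The balance between DNA synthesis and mitosis counts was similar at 4 ages and lower for mitosis at pnd28. Of the counts of both, mitosis members held 53.3% (51.2 to 55.4, exact binomial 95% interval) at pnd0, 56.1% (54.3 to 57.9) at pnd7, 55.9% (52.5 to 59.2) at pnd14, 40.6% (34.8 to 46.7) at pnd28 and 54.1% (47.8 to 60.4) at pnd56. The one run of pnd28 lies below the rest, whereas among the pnd7 runs the share reached 62.6% in run 6. At pnd28 Rfc4 and Orc5 alone held 436.4 and 405.2 CPM of the 1714 CPM of the DNA synthesis members. The share without these genes was not computed, so the pnd28 value cannot be read as a shift of the whole group.

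Cells that carry several members at once were fewer at pnd14. Cells were thinned to 1500 counts each, and those with fewer were left out (9, 13, 60, 23 and 20 cells). Cells with counts of at least 3 different DNA synthesis members made up 25% (18.6 to 32.3) at pnd0, 27.2% (21.8 to 33.1) at pnd7 and 11.5% (6.27 to 18.9) at pnd14 (in brackets, the exact binomial 95% interval). At pnd28 they were 24.2% (11.1 to 42.3) and at pnd56 28% (12.1 to 49.4). Cells with at least 3 different mitosis members made up 19.5% (13.7 to 26.4), 29.5% (24 to 35.6) and 12.4% (6.94 to 19.9) at pnd0, pnd7 and pnd14. At the later ages they were 9.09% (1.92 to 24.3) and 16% (4.54 to 36.1). Without thinning the mitosis shares were 41.6, 45.7, 13.3, 8.93 and 22.2%, and the DNA synthesis shares 49.1, 43.8, 11, 19.6 and 24.4%. Such a share is a range of counts, not a phase of the cycle: at pnd7, 36 cells had exactly 3 DNA synthesis members and 57 had 2. By run, the mitosis share was 25.6, 30.5 and 32.2% at pnd7 and 4.55, 22.2 and 15.7% at pnd14. No cell population known to lack these genes was at hand, so the background of such shares was not measured.

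**Figure D4:**
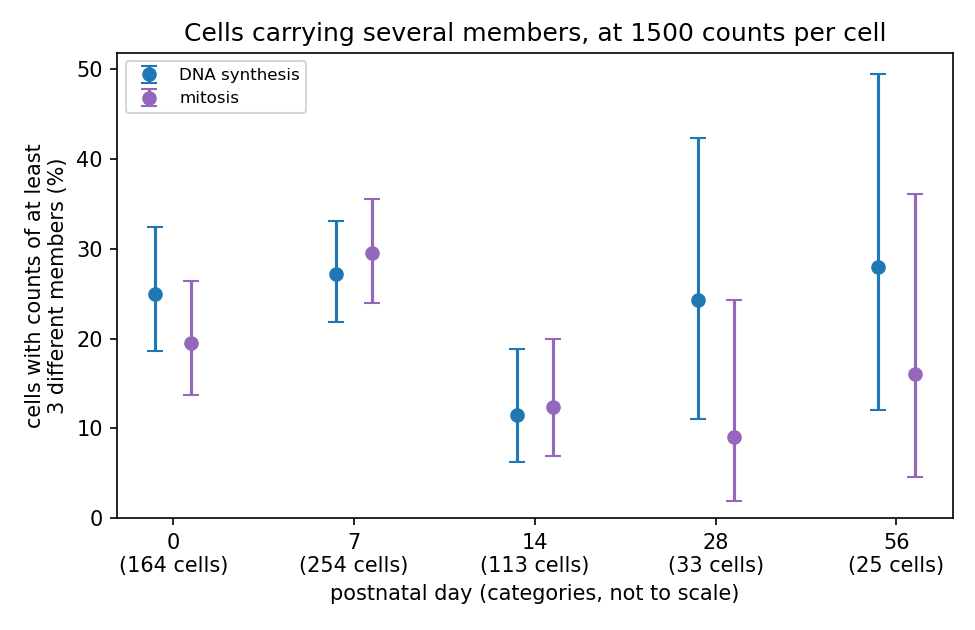
Percent of cells with counts of at least 3 different members (y axis, from 0) at each age (x axis, with the number of cells), for DNA synthesis (blue) and mitosis (purple) genes, after thinning each cell to 1500 counts. Bars are exact binomial 95% intervals: at pnd7 the shares are 27.2% and 29.5%, at pnd14 11.5% and 12.4%, and the intervals of pnd28 and pnd56 are wide.

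The cells that carried mitosis members carried other mitosis genes as well. At pnd7, the 75 cells with at least 3 mitosis members had 5529 CPM of the further mitosis genes, which were not used to pick them, and the remaining cells had 2462 CPM. At pnd14, the 14 such cells had 4476 CPM and the other 99 had 1569 CPM. At pnd0 the values were 6250 and 1985 CPM. In the cells with fewer mitosis members the level was lower at pnd14 than at pnd7 (1374 to 1784 against 2278 to 2657 CPM). For cells with at least 3 mitosis members the counting intervals overlap, at 3617 to 5478 and 5103 to 5981 CPM. At pnd28 and pnd56 only 3 and 4 such cells were at hand, with 10222 and 4833 CPM. All other cells of those ages had 1556 and 2286 CPM. The difference was not of mitosis genes alone. Of the further replication genes, cells with at least 3 mitosis members had 3958, 3538, 1952, 2222 and 6167 CPM at the 5 ages. The remaining cells had 2833, 2749, 1461, 1711 and 1714 CPM, with overlapping counting intervals at pnd14 and pnd28.

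Synthesis and mitosis counts met in the same cell in a minority. At pnd7, 27 cells had at least 3 members of both kinds, 48 of mitosis only and 42 of DNA synthesis only, or 10.6%, 18.9% and 16.5% of the cells. At pnd14 these numbered 3, 11 and 10, or 2.65%, 9.73% and 8.85%. Across thinned cells, Spearman's rho between the counts of the groups was 0.33, 0.13, 0.21, −0.03 and 0.31 at the 5 ages (each point 1 cell, all at equal depth, with 33 cells at pnd28, 25 at pnd56 and more at the others). These are weak relations in sparse counts. The 10% of cells richest in mitosis counts held 46.8%, 40.8%, 47.6%, 48.7% and 49.3% of them, and the 10% richest in DNA synthesis counts held 35.7%, 33.9%, 44.3%, 32.1% and 42.7%. Mitosis counts were thus the more concentrated at every age.

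Across DNA synthesis and mitosis members with at least 50 counts, the highest level was most often at pnd7. The lowest was rarely in the first week. Of 14 DNA synthesis members, 3, 6, 1, 3 and 1 were highest at pnd0, pnd7, pnd14, pnd28 and pnd56, and 0, 0, 8, 5 and 1 lowest. Of 23 mitosis members, 6, 8, 2, 2 and 5 were highest and 2, 0, 7, 6 and 8 lowest. Of 10 control members, 4, 3, 1, 1 and 1 were highest and 0, 1, 3, 2 and 4 lowest. Of 28 other members, 8, 6, 2, 9 and 3 were highest and 4, 2, 6, 6 and 10 lowest. A lowest level after the first week is thus not particular to DNA synthesis and mitosis genes. The minimum of 50 counts was over all ages, so a member can pass it through the first week alone. No such share was computed over all genes. The ages with the fewest counts, pnd28 and pnd56, have the widest counting intervals.

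The 64 members whose names match and whose work mostly lies elsewhere were lower as a sum at pnd14 and in the adult. The log2 ratio of their summed counts was −0.22 (−0.34 to −0.11) for pnd14 over pnd7, and −0.41 (−0.63 to −0.20) for pnd56 over pnd0, where DNA synthesis and mitosis members gave −0.27 and −0.23. At pnd14, 4 of 32 with enough counts were at least 2-fold lower than at pnd7 and 1 higher, with a median of −0.34, where 14.3% of all genes were lower and 10.7% higher, with a median of −0.10. At pnd56, 8 of 25 were at least 2-fold lower than at pnd0 and 2 higher, where 27.4% and 10.3% of all genes were. The shares that were lower are near those of all genes. Cdc34, a ubiquitin-conjugating enzyme whose reads a near copy may share, had 207.7, 291.97, 307.9, 228.6 and 317.5 CPM at the 5 ages. Kif1c and Kif5b, kinesins of cargo transport, had 192.2, 167.8, 146.9, 93.5 and 170.95 CPM and 123.6, 87.3, 132.8, 176.6 and 122.1 CPM. For Kif5b the ratio of pnd14 over pnd7 was 0.60 (0.03 to 1.17). The mitotic kinesins Kif4 and Kif20a gave −1.97 and −1.34, but the mitotic kinesin Kif23 gave 0.52.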

How the data were processed

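Single-cell CEL-seq libraries of 714 cells, each a sample of its own, were analysed at 5 ages. Per the labels and the values, the deposited table holds whole-number counts, 1 row a gene and 1 column a cell. The submitters' processing notes name TopHat, Cuffnorm and the build mm9, without versions or roles. Whether molecular identifiers were collapsed, the counting rule, its use of strand and the rule that removed cells are not stated in any source used here. Intervals and floors therefore cover counting error only, and reads of overlapping genes could not be separated.

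No label names an animal, so cells of an age were summed to 1 sample and nothing was tested between ages. Levels are counts per 1000000 over all rows with exact Poisson intervals, ratios carry exact conditional binomial intervals and shares exact Clopper-Pearson intervals, all at 95% (scipy 1.17.1, numpy 2.4.6, pandas 2.3.3, Python 3.11.15). An age at 0 was set to a floor of 3 counts over the age, and a fold of 2 was read only for members with at least 20 counts over both ages, beside the share of all genes so called. A gene can pass that minimum through one age alone, so these counts are descriptions. Shares of cells used each cell thinned to 1500 counts (seed 1). Total scaling and median-of-ratios scaling differed by −0.07, 0.09, −0.05, −0.19 and −0.23 on the log2 scale for pnd7 over pnd0, pnd14 over pnd7, pnd28 over pnd14, pnd56 over pnd28 and pnd56 over pnd0. Doublets were not called. The ratio code was tested on simulated data.

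The members, their roles and the further lists were chosen with earlier results of these data known. Genes were named by rule: the 12 members with the most counts in each group, the 2 with the most counts of each role, members of at least 50 counts whose ratio went against their group, and all CDK inhibitors, D and E cyclins, cyclins A and B, E2F, MCM and RRM genes. From each further list the 5 genes with the most counts could be named. Counts of members were planned for all 5 pairs of ages but are given for 3, since fewer than 10 members a group could be read in pairs with pnd28. Promoter sequences come from RefSeq in build GRCm38.p6, another build than that of the counts, and were matched by gene name. Alternatives tried were the scaling, thinning, the count minimum, cells with non-epithelial markers, single cells, single members and single runs (blocks of 96 consecutive titles, taken as technical units by assumption). No column was left unmapped.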

Additional observations from a re-analysis of the deposited data

How the results depend on the processing

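The summed level at pnd14 stood below that at pnd7 for both groups under every scaling, thinning and run left out that was tried. The counts of members past 2-fold are less secure, because 25 mitosis and 8 DNA synthesis members had under 20 counts and because pnd28 and pnd56 hold 96248 and 81894 counts. No paired analysis was possible because the labels give no replicate numbers shared between ages. The causes of the shifts below were not tested.

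With each cell thinned to 1500 counts, the log2 ratio of the DNA synthesis sum was −0.55 for pnd14 over pnd7 and 0.023 for pnd56 over pnd0. The share of all genes past 2-fold was computed only for the main setting. The counts of members in this paragraph thus have no background beside them and are descriptions. The number of members with enough counts under each setting is not given, so a smaller count need not mean fewer differences. When thinned, 1 DNA synthesis member was lower at pnd7 than at pnd0, and 1 mitosis member. At pnd14, 4 DNA synthesis and 7 mitosis members were lower than at pnd7, and 1 and 2 higher. At pnd56, 0 mitosis members were lower and 0 higher than at pnd0. Only 25 pnd56 cells were left at this depth, so few members could be called there. The values of 0 cannot be read as no difference. Without Ncaph2 the mitosis sum of pnd14 over pnd7 was −0.97. With at least 50 counts, 2 mitosis members were lower and 1 higher at pnd7, 4 DNA synthesis and 6 mitosis members were lower at pnd14, and at pnd56 1 DNA synthesis member and 0 mitosis members were lower, and 0 mitosis members higher. With no minimum, 1 DNA synthesis member was lower and 2 higher at pnd7, 9 mitosis members lower and 4 higher, 1 mitosis member was higher at pnd14, and 2 DNA synthesis members higher at pnd56. Median-of-ratios scaling left 0 DNA synthesis members and 1 mitosis member higher at pnd56, and without cells carrying other markers 1 DNA synthesis member was lower there.

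Asking for at least 2 different members gave DNA synthesis shares of 46.95%, 49.6%, 30.1% and 51.5% of cells at pnd0, pnd7, pnd14 and pnd28, and mitosis shares of 42.1%, 50.4% and 26.5% at pnd0, pnd7 and pnd14. Asking for at least 5 gave 4.88%, 3.94%, 0.885%, 3.03% and 8% for DNA synthesis at the 5 ages, and 11.6%, 11.4% and 3.54% for mitosis at the first 3. Thinned to 1000 counts, the DNA synthesis shares were 12.9%, 12.8%, 2.47% and 9.62% at the first 4 ages, and the mitosis share at pnd7 was 18.8%.

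Leaving out each run in turn, the DNA synthesis sum ranged from −0.017 to 0.20 for pnd7 over pnd0 and from −0.90 to −0.66 for pnd14 over pnd7, and the mitosis sum from 0.21 to 0.27 and from −0.91 to −0.62. The counts of DNA synthesis members lower and higher ranged from 0 to 3 and 0 to 2 at pnd7, from 5 to 9 and 0 to 2 at pnd14, and from 1 to 1 and 0 to 2 at pnd56. Those of mitosis members ranged from 0 to 4 and 2 to 4, from 11 to 13 and 0 to 1, and from 2 to 5 and 1 to 2. No share of all genes was computed with a run left out. The share of cells with at least 3 mitosis members ranged from 9.68% to 17.4% at pnd14 and from 28.0% to 31.4% at pnd7. Among named genes, Plk4 at pnd7 over pnd0 ranged from −1.67 without run 2 to 0.32 without run 1, Orc5 at pnd14 over pnd7 from −0.32 without run 4 to 2.24 without run 5, with −0.03 without run 10, and Cdkn1a at pnd56 over pnd0 came out at −0.46 when thinned.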

Other observations

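Genes that hold cells out of the cycle were set beside the members. The list of 25 pocket proteins, DREAM subunits and p53-linked exit genes summed to 2058, 2055, 2079, 4010.5 and 1599.6 CPM at pnd0, pnd7, pnd14, pnd28 and pnd56. Gadd45b and Gadd45g, stress-response genes that restrain growth, made up most of it, with 791.3, 693.1, 497.1, 1891 and 476.2 CPM and 568.1, 562.1, 903.8, 1216 and 659.4 CPM. Rbl2, the pocket protein p130, had 58.4, 90, 98.9, 103.9 and 134.3 CPM at the 5 ages, and Trp53, which encodes p53, had 68.7, 73.7, 19.8, 20.8 and 12.2 CPM; both were named after their values were seen. Cdca7l, a relative of the E2F target Cdca7 among the members, had 272.9, 170.5, 112.98, 103.9 and 85.5 CPM, a lower value at each later age, and was also named after its values were seen.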
